A study of Mus musculus with 6 samples.

Results

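The genes described here encode the elastic fibre and its microfibrils, the laminins and their basement membrane partners, matricellular proteins, and the fibronectin and hyaluronan matrix with its adaptors. They were chosen by gene symbol alone, with a fixed pattern of names that used no measured value. The pattern was chosen with earlier results of these data known, and 47 of the 7384 genes in the deposited tables matched it. A further 25 annotated mouse genes have symbols that match and were not analysed here, among them Fbn2, Ltbp3, Lama4, Lama5, Nid2, Thbs1 and Thbs2. All 47 passed a filter of at least 10 normalised read counts in at least 3 libraries, and 1 of them, Lama1, passed through the Control libraries only.

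RNA was sequenced from vascular smooth muscle cells that had been isolated from mouse aorta and grown in culture. The siSirt6 group, 3 libraries, had received a small interfering RNA against Sirt6 for 48 h, and the Control group, 3 libraries, was kept for the same 48 h. Sirt6 encodes a nuclear NAD-dependent deacylase. The sources used here do not give what the Control cultures received, nor the strain, sex and age of the mice. Nothing in the labels says that the replicates of a group came from separate animals or cultures, so each p-value measures the spread between these libraries only, which may be technical.

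Smooth muscle cells make most of the elastic lamellae of the artery wall. Tropoelastin, the product of Eln, is laid onto a scaffold of fibrillin microfibrils with the help of fibulins and latent TGF-beta binding proteins, and is then cross-linked by lysyl oxidases. Laminins are trimers of an alpha, a beta and a gamma chain and, with nidogen, perlecan and collagen IV, form the basement membrane around each muscle cell. Matricellular proteins such as tenascin C and SPARC sit in the matrix without bearing load and change how cells attach and respond to it, while hyaluronan and the proteoglycan versican form a hydrated gel around the cells.

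The 4 promoters printed here belong to the members with the largest rise and the largest fall of the elastic fibre set for which RefSeq gave a window (Ltbp2 and Fbln5), and to a proteoglycan and a hyaluronan synthase among the genes that rose (Vcan and Has1). Each is the 250 bases before the RefSeq transcript start on GRCm38.p6, read 5′ to 3′ on the minus strand, on which all of these genes lie. The Ltbp2 window is chr12:84876492-84876741, that of Fbln5 is chr12:101819120-101819369, that of Vcan is chr13:89742513-89742762 and that of Has1 is chr17:17855189-17855438. Capitals mark the matches to 2 short motifs searched on both strands, the GC box GGGCGG and the SMAD element CAGAC, either of which may appear as its reverse complement.
Ltbp2: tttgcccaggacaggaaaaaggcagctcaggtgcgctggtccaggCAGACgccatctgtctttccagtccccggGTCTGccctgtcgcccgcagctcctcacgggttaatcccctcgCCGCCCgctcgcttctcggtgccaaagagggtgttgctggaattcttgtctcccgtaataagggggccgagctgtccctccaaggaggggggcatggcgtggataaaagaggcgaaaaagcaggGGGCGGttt
Fbln5: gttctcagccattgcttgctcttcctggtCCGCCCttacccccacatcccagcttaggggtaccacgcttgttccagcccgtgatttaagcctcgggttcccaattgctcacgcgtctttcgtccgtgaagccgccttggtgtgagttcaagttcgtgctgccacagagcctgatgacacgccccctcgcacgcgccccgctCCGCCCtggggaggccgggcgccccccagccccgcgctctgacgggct
Vcan: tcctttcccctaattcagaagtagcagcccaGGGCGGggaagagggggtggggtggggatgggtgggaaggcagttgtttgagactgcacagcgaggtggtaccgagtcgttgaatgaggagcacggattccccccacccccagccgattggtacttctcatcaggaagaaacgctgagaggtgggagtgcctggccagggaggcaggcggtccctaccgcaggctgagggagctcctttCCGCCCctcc
Has1: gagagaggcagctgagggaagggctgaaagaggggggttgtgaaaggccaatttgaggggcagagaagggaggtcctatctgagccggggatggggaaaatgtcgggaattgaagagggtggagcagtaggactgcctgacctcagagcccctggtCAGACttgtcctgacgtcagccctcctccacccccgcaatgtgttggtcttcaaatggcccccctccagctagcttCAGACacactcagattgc
Ltbp2 held 2 SMAD elements, whose first bases lie 205 and 176 bases before the start, and 2 GC boxes, at 133 and 9 bases. Fbln5 held 2 GC boxes, at 221 and 48 bases, and Vcan 2, at 219 and 10 bases. Has1 held 2 SMAD elements, at 94 and 18 bases, and no GC box. RefSeq windows were at hand for 34 members, 20 of which rose and 14 of which fell in siSirt6 cells. The GC box was present in 18 of the 34 windows, 10 of genes that rose and 8 of genes that fell, and in 32.7% of the 32851 windows of all genes. The SMAD element was present in 19 of the 34, 13 of genes that rose and 6 of genes that fell, and in 42.2% of all windows. The other motifs searched were the AP-1 site TGANTCA, in 3 of the 34 windows and 6.75% of all, the TEAD site CATTCC, in 4 and 12.6%, the TATA box TATAAA, in 4 and 12.4%, and the CArG box, in 1 and 1.47%. These matches describe letters in a window and no binding was measured. No window was at hand for Eln, Mfap4, Mfap5, Lama1, Lama3, Lamc1, Sparcl1, Spon1, Spon2, Fn1, Has2 and Matn2.

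The deposited values were whole reads divided by a single factor for each library and are called normalised read counts. The listed genes took between 14614192 and 15526399 reads per library in siSirt6 cells and between 14458847 and 14563794 in Control cells, and the depth of the whole libraries is unknown. Sirt6, on chromosome 10, stood at 44.5, 59.8 and 63.5 normalised read counts in siSirt6 cells and at 251.7, 257.0 and 270.4 in Control cells. Its remaining level was 0.215 of Control (log2 fold change -2.21, SE 0.141, adjusted p = 1.16e-15, limma). Among markers of the labelled cell type, 5 of 6 tested smooth muscle genes rose and 1, Smtn, fell. Of all tested genes, 50.5% were called higher and 49.3% lower. The summed level of these markers was 102338 to 103408 in siSirt6 libraries and 63721 to 63957 in Control libraries, nearly all of it from Acta2. Tagln, which mature smooth muscle makes in abundance, averaged 348 in siSirt6 cells and 179 in Control cells, and Myocd and Des were not analysed here.

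Markers of other cell types moved with the groups as well, in tables of which 50.5% of all tested genes were called higher and 49.3% lower. All 10 endothelial genes tested of 12 rose, with a summed level of 4471 to 4621 in siSirt6 libraries and 2975 to 3217 in Control libraries. Cldn5, among them, passed the filter through siSirt6 libraries only and so had to differ, and its part in that count supports nothing. Of 8 adventitial fibroblast genes tested of 10, 2 rose and 6 fell, with sums of 75064.5 to 76380.5 in siSirt6 libraries and 91161 to 92069 in Control libraries. Most of that sum came from Gsn, at 57433 in siSirt6 cells and 72100 in Control cells. For Schwann cells and neurons, 5 of 8 genes were tested, of which 1 rose and 4 fell, with sums of 3557 to 3723 in siSirt6 libraries and 2393 to 2433 in Control libraries. The gene that rose, the neuronal tubulin Tubb3, carried the higher sum, at 2982 in siSirt6 cells and 1321 in Control cells, while S100b and Ngfr were among those that fell. Only 3 of 10 macrophage and leukocyte genes were tested, all 3 rose, and their sums were 1978 to 2018 in siSirt6 libraries and 1777 to 1822 in Control libraries. With the trend on exon length and GC content that is described below removed, none of these 3 was higher, 1 was lower (Lyz2, -0.21 on the log2 scale) and 2 were not called. The endothelial genes were all still higher in that fit, Cldn5 with the same limit. Smooth muscle genes were again 5 higher and 1 lower. Of the adventitial fibroblast genes, 1 was higher, 6 were lower and 1, Ly6a, was not called. Schwann cell and neuron genes were 1 higher, 3 lower and 1 not called. In that fit 38.9% of all tested genes were called higher and 37.7% lower. None of the tested markers was at 0 in all libraries of a group. Fibroblasts and endothelial cells make many of the matrix proteins described here, and the part of such cells in the results was not tested. In bulk RNA, fewer cells of a type and less RNA per cell cannot be told apart.

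Nearly every gene in the tables differed between the groups. Of 7179 genes tested with limma, 99.8% passed an adjusted p of 0.05 (Benjamini-Hochberg over all tested genes), 50.5% higher and 49.3% lower in siSirt6 cells, so that passing the test does not set the matrix genes apart. All 47 members passed it, 27 higher and 20 lower. When libraries were scaled to their listed totals instead, 23 members were higher, 21 lower and 3 not called, against 87.4% of all tested genes called, 37.7% higher and 49.7% lower. Their median log2 fold change was 0.21, against 0.08 for all tested genes, and their median absolute log2 fold change was 0.34, against 0.37. A change of at least 2-fold was found for 5 members, with Has2 higher and Lama1, Lama3, Spon2 and Matn4 lower, against 7.72% of all tested genes, 4.01% higher and 3.71% lower. Lama1 passed the filter only through the group where it is high and so had to differ, and its part in that count supports nothing. With the trend removed the count was 7, against 6.9% of all tested genes, and with listed totals it was 4, against 8.2%. The ranges of the groups did not overlap for 46 members, the exception being Spon1, against 96.8% of all tested genes. When p-values were adjusted over all 55450 annotated genes, with genes outside the tables taken as unchanged, 27 members were higher and 16 lower, and Fbln7, Fbn1, Lamc1 and Spon1 no longer passed, against 90.4% of tested genes that still did, 45.9% higher and 44.4% lower.

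**Figure D1:**
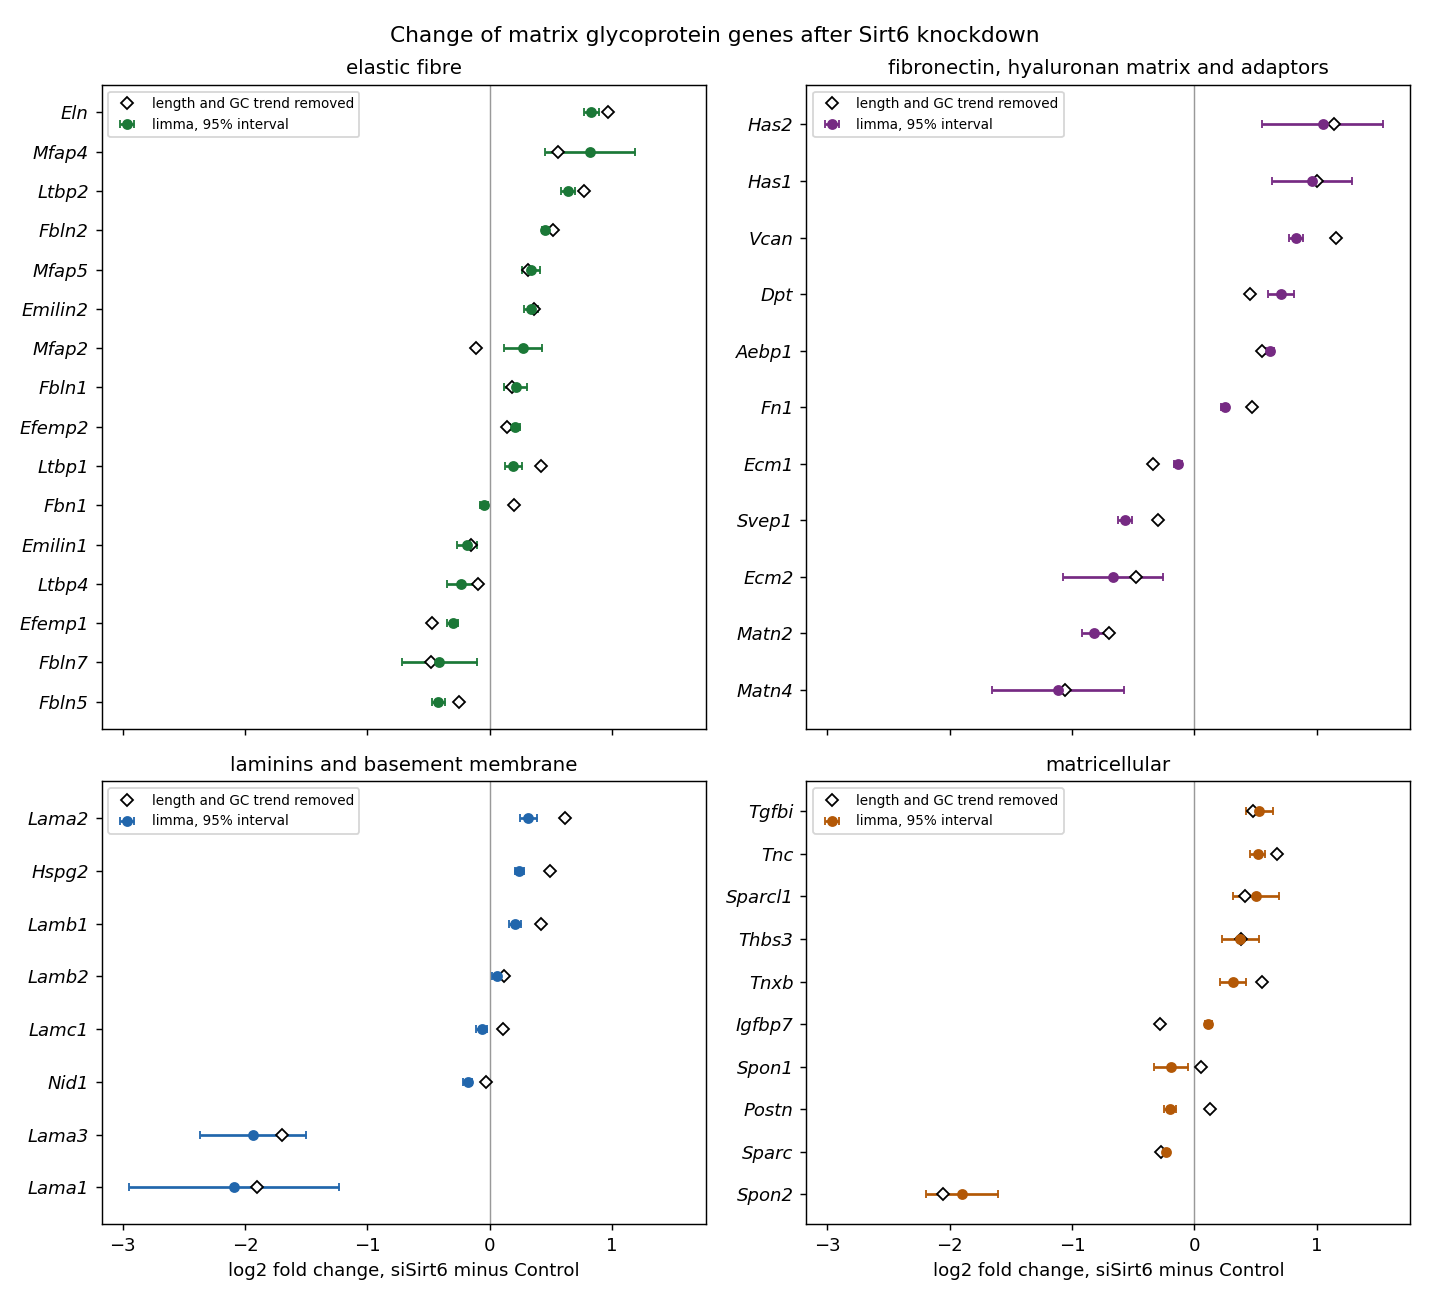
Log2 fold changes (siSirt6 minus Control, on log2 of the normalised read count plus 1) of the members reported, by set. Dots with bars are the limma estimate with its 95% interval (3 siSirt6 and 3 Control libraries), and open diamonds the estimate after removal of the trend on exon length and GC content. Each set holds genes on both sides of 0, from Has2 at 1.05 to Lama1 at -2.09.

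One technical property moved with the direction of change over the whole table. Among all tested genes with an annotated length, the median log2 fold change was 0.42 in the bin of the shortest exon length (67 to 1495 nt), of 10 equal bins, and -0.33 in the bin of the longest (10351 to 123179 nt). Matrix genes are long, with a median exon length of 6082 nt for the members and 4417 nt for all tested genes, and 17 of the 47 were shorter than that general median. Spearman's rho between log2 fold change and exon length was -0.09 across the 47 members and -0.40 across 7130 genes, as a description across genes that share their libraries. With the trend on length and GC content removed, 28 members were higher, 15 lower and 4 not called, while 76.6% of all tested genes were called, 38.9% higher and 37.7% lower. The sign was kept by 41 of 47 members, and it turned for Fbn1, Igfbp7, Lamc1, Mfap2, Postn and Spon1. Whether the trend is technical was not tested, and the value with the trend removed is given below for each member whose call or direction it changed.

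**Figure D2:**
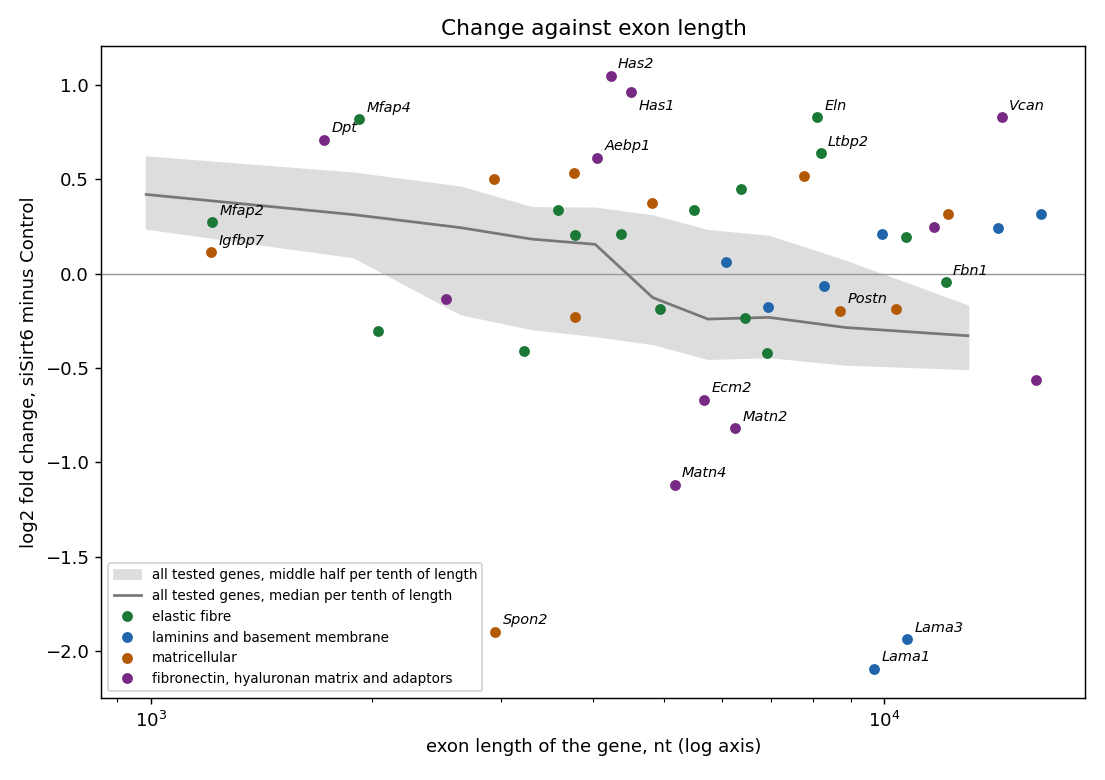
Log2 fold change (siSirt6 minus Control) against exon length in nt (log axis). Points are the members reported, coloured by set, and the line and band are the median and the interquartile range of all tested genes in each of 10 bins of exon length. The band runs down from a median of 0.42 to -0.33, while long members such as Vcan (14462 nt), Lama2 (16338 nt), Hspg2 (14307 nt) and Fn1 (11685 nt) lie above it, and Svep1 (16117 nt) and Lama3 (10745 nt) below it.

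In the elastic fibre set, elastin itself rose and a fibulin that guides its assembly fell. Eln rose 1.78-fold and Fbln5 fell to 0.748 of Control, and the scaffold gene Fbn1 stood at 0.969 of Control. Of 16 genes in the set, 10 rose and 6 fell (median log2 fold change 0.21, all tested genes 0.08), none by 2-fold. Of all tested genes, 50.5% were called higher, 49.3% lower and 7.72% by at least 2-fold. With the trend removed, 10 of the set were higher, 4 lower and 2 not called, against 38.9% of all tested genes higher and 37.7% lower.

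Eln, which encodes tropoelastin, lies on chromosome 5 at 134702593 to 134747323 (minus strand). Its level was 8854, 8025 and 8357 normalised read counts in siSirt6 libraries and 4862, 4591 and 4729 in Control libraries. The ranges were far apart, with means of 8412 ± 417 in siSirt6 cells and 4727 ± 136 in Control cells (SD, n = 3 each, as for every mean given here). The log2 fold change was 0.83 (SE 0.0303, adjusted p = 1.99e-17, limma), and 0.97 with the trend removed. Among the partly overlapping annotated genes, Gm30003, on the opposite strand, covers 3.30% of the exonic bases of Eln. The sources used here do not give the strand setting of the authors' counting.

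Of the microfibril genes, Fbn1, which encodes the main fibrillin of adult microfibrils, averaged 22030.1 ± 401 in siSirt6 cells and 22729 ± 81.3 in Control cells. The difference of -0.05 on the log2 scale passed the test (adjusted p = 0.0133, limma) but turned to 0.20 with the trend removed, and its adjusted p was 0.10 without siSirt6 replicate 1. Exons of the annotated gene Gm9913, on the opposite strand, cover 20.1% of those of Fbn1. Mfap2 and Mfap5, which encode small glycoproteins bound to fibrillin, averaged 470.2 ± 12.4 and 5319 ± 246 in siSirt6 cells, against 390.2 ± 33.7 and 4205 ± 199 in Control cells. Mfap5 rose by a log2 fold change of 0.34, and Mfap2 rose by 0.27 but stood at -0.12, not called, with the trend removed and was not called with listed totals (adjusted p = 0.0564, limma). Mfap4, an elastic fibre protein with a fibrinogen-like domain, was scarce, at 90.0, 80.4 and 92.6 in siSirt6 libraries and 56.6, 40.9 and 51.2 in Control libraries. It was 1.77-fold higher with no overlap of the groups (log2 fold change 0.82, SE 0.18, adjusted p = 0.000118, limma).

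Latent TGF-beta binding proteins did not move as a block. Ltbp2, a microfibril protein of this family that does not itself bind latent TGF-beta, was at 4683, 4659 and 4599.8 in siSirt6 libraries and 2991, 3009 and 2959 in Control libraries. All siSirt6 libraries were about equally high, and the ratio was 1.56 (log2 fold change 0.64, SE 0.0278, adjusted p = 3.06e-20, limma). Ltbp1, which tethers latent TGF-beta to the matrix, averaged 2371 ± 31.5 in siSirt6 cells and 2074 ± 22.1 in Control cells, a rise of 0.19 on the log2 scale. Ltbp4, which in mice is needed together with Fbln5 for elastic fibres, averaged 793 ± 24.5 in siSirt6 cells and 934 ± 79.2 in Control cells. The log2 fold change of -0.23 passed the test (adjusted p = 0.000394, limma) and was -0.10 and not called with the trend removed.

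The fibulins split. Fbln2, by far the most abundant of them and a binding partner of fibronectin and elastin, was at 115584, 117902 and 117420.0 in siSirt6 libraries and 86373, 84738 and 85739.6 in Control libraries. All siSirt6 values lay above all Control values, with a ratio of 1.37 (log2 fold change 0.45, SE 0.0117, adjusted p = 1.83e-26, limma). Fbln5, which binds tropoelastin and integrins and is required for elastic fibres in mice, averaged 6024 ± 232 in siSirt6 cells and 8057 ± 91.1 in Control cells. It fell by 0.42 on the log2 scale (SE 0.0255, adjusted p = 3.29e-16, limma), and by 0.25 with the trend removed. Fbln1, found in elastic fibres and basement membranes, averaged 1115 ± 19.3 in siSirt6 cells and 962 ± 7.0 in Control cells, a log2 fold change of 0.21 that was 0.09 and not called with listed totals (adjusted p = 0.0585, limma). Fbln7 averaged 84.2 ± 11.9 in siSirt6 cells and 112 ± 8.64 in Control cells. Its log2 fold change of -0.41 passed at an adjusted p of 0.0107 (limma), but not without Control replicate 3 or without siSirt6 replicate 1 (adjusted p = 0.0706, limma).

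Efemp1 and Efemp2, a pair of related fibulins, moved apart. Efemp2, which in mice brings lysyl oxidase to tropoelastin, was at 13183, 13247 and 13075 in siSirt6 libraries and 11534, 11589 and 11136 in Control libraries. The siSirt6 values were all higher, by a ratio of 1.15 (log2 fold change 0.21, SE 0.0204, adjusted p = 8.14e-11, limma). Efemp1 was at 15654, 15795 and 16245 in siSirt6 libraries and 19360.0, 19188 and 20336 in Control libraries. Here the siSirt6 values were all lower, by a log2 fold change of -0.30 (SE 0.0207, adjusted p = 4.88e-14, limma). Within each library the per-kb ratio of Efemp1 to Efemp2 was 2.25 ± 0.0566 in siSirt6 cells and 3.20 ± 0.172 in Control cells.

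Emilins, glycoproteins found where elastin meets microfibrils, also moved apart. Emilin1 averaged 3111 ± 138 in siSirt6 cells and 3545 ± 210.0 in Control cells, with a log2 fold change of -0.19. Emilin2 averaged 5049 ± 145 in siSirt6 cells and 3992 ± 28.8 in Control cells, with a log2 fold change of 0.34. The per-kb ratio of Emilin1 to Emilin2 was 0.688 ± 0.0404 in siSirt6 cells and 0.990 ± 0.0577 in Control cells, with no overlap of the libraries.

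Ratios within a library do not depend on its scaling. Per kb of exon, the ratio of Eln to Fbn1 was 0.572 ± 0.0382 in siSirt6 cells and 0.312 ± 0.00937 in Control cells. The ratio of Fbln5 to Eln was 0.841 ± 0.0574 in siSirt6 cells and 2.00 ± 0.0580 in Control cells. The order of the 2 genes was thus opposite in the groups with the exon lengths used, 8098 nt for Eln and 6911 nt for Fbln5. These lengths join the exons of all annotated transcripts, and with the length of a single transcript the order could differ. Fbln5 to Fbln2 was 0.0475 ± 0.00165 in siSirt6 cells and 0.0867 ± 0.00111 in Control cells. These ratios were not tested, and no library of one group overlapped the other in any of them. The whole elastic fibre set took 1.34% ± 0.0151 of the listed reads in siSirt6 cells and 1.22% ± 0.00604 in Control cells. Without Fbln2 the order was the other way, with 0.579% ± 0.00526 in siSirt6 cells and 0.609% ± 0.00160 in Control cells. The summed normalised read counts of these genes without Fbln2 were 88579 ± 377 in siSirt6 cells and 85812 ± 111 in Control cells. The order without Fbln2 thus depends on the scaling.

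**Figure D3:**
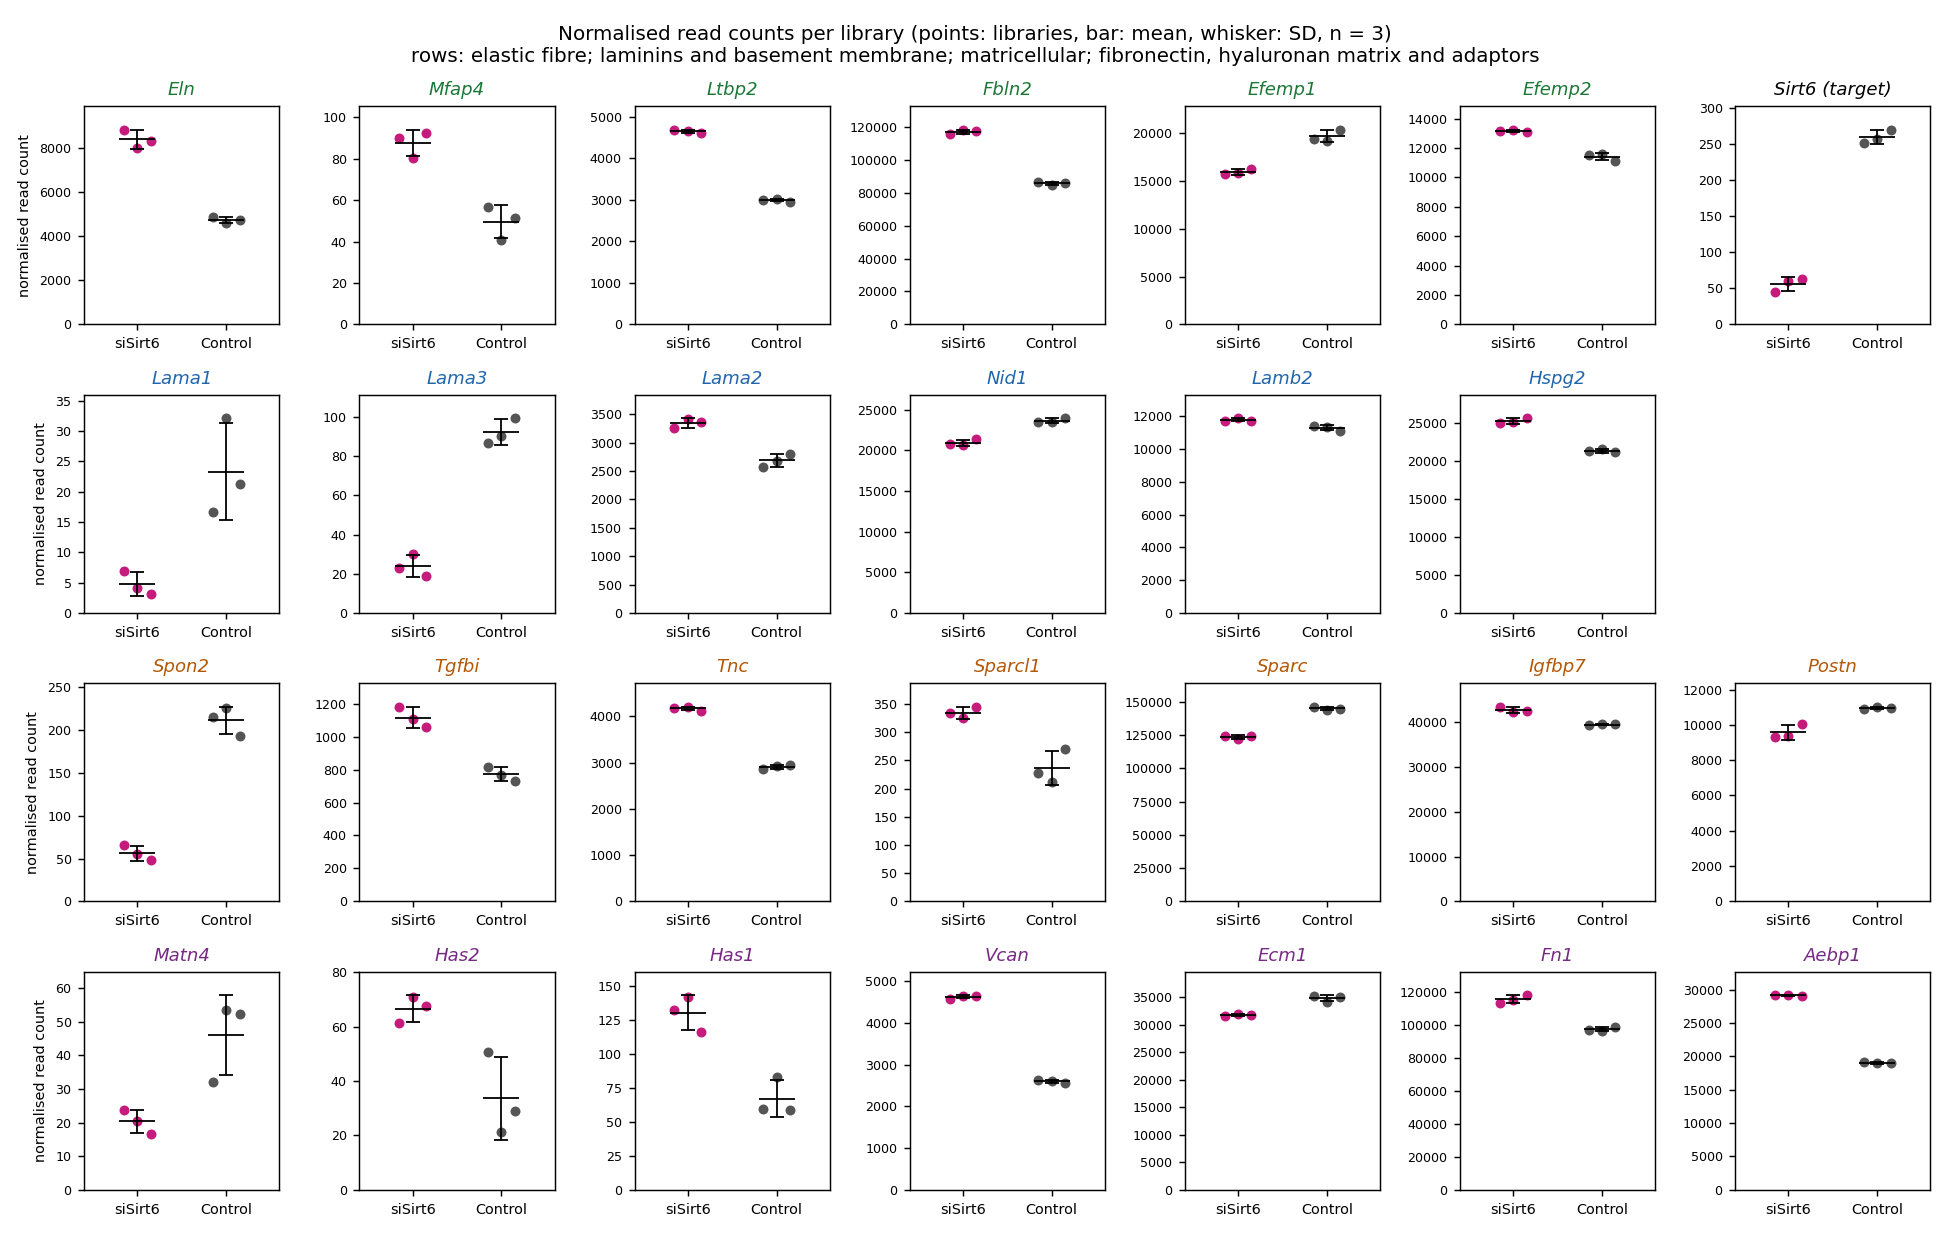
Normalised read counts (linear axes from 0) in each siSirt6 library and, to the right, each Control library, for Sirt6 and the members with the largest changes or highest levels of each set. Dots are libraries and bars the group means (n = 3 each). Eln, Fbln2, Vcan and Tnc stand higher in all siSirt6 libraries and Lama3 and Spon2 lower, while Lamb2 and Igfbp7 differ by a small part of their level.

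Of the 2 scarcest laminin chains, Lama3 fell to 0.258 of Control and Lama1 stood at 0.202 of Control on few reads. Lama2 rose by 0.32 on the log2 scale. Of the 9 genes of laminins and basement membrane partners, 5 rose and 4 fell (median log2 fold change 0.06, all tested genes 0.08). Among all tested genes, 50.5% were called higher and 49.3% lower. With the trend removed, 6 of the set were higher, 2 lower (Lama1 and Lama3) and 1 not called, against 38.9% of all tested genes higher and 37.7% lower. Lama1 passed the filter through Control libraries only and so had to differ, and its part in these counts supports nothing.

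Among the alpha chains, Lama3, the chain of epithelial anchoring laminins, was at 22.7, 29.9 and 18.7 in siSirt6 libraries and 86.8, 90.5 and 99.5 in Control libraries. Every siSirt6 value was under every Control value by a wide margin (log2 fold change -1.93, SE 0.214, adjusted p = 9.11e-10, limma). Lama1, an alpha chain of early embryonic basement membranes, was close to the limit of detection, with 7, 4 and 3 reads in siSirt6 libraries and 17, 33 and 22 reads in Control libraries. The ratio of summed reads, 14 against 72 and scaled for the libraries, was 0.204 with a 95% interval of 0.106 to 0.365 (exact conditional binomial, counting error only). The fitted log2 fold change of -2.09 is given as a description with no test, since the gene passed the filter through Control only. Lama2, the alpha chain of muscle basement membranes, was at 3255, 3424 and 3368 in siSirt6 libraries and 2579.9, 2679 and 2809 in Control libraries. The groups did not overlap, and the log2 fold change was 0.32 (SE 0.033, adjusted p = 2.64e-10, limma), or 0.61 with the trend removed. Per kb, Lama2 averaged 205 ± 5.25 in siSirt6 cells and 164.6 ± 7.05 in Control cells. Lama3 averaged 2.21 ± 0.526 per kb in siSirt6 cells and 8.59 ± 0.604 in Control cells.

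Lamb1, Lamb2 and Lamc1 were higher per kb than these alpha chains. Lamb1 averaged 6614 ± 47.4 in siSirt6 cells and 5720.2 ± 41.1 in Control cells, a log2 fold change of 0.21. Lamb2, the beta chain of mature vessel walls, was at 11733, 11888 and 11711 in siSirt6 libraries and 11405, 11373 and 11110.3 in Control libraries. That difference of 0.06 on the log2 scale passed the test (adjusted p = 0.00598, limma) but was -0.06 when libraries were scaled to their listed totals, so it has no direction apart from the scaling. It was not called with TMM scaling either (adjusted p = 0.0987, limma). Lamc1, the gamma chain of most laminins, averaged 7439.9 ± 66.8 in siSirt6 cells and 7780.2 ± 96.7 in Control cells, with a log2 fold change of -0.06 that turned to 0.11 with the trend removed. The per-kb ratio of Lama2 to Lamb1 was 0.307 ± 0.00681 in siSirt6 cells and 0.285 ± 0.0143 in Control cells, and the libraries of the groups overlapped.

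Of the laminin partners, Hspg2, which encodes the proteoglycan perlecan, was at 24902, 25042 and 25588 in siSirt6 libraries and 21227, 21539.7 and 21071 in Control libraries. All siSirt6 values were higher, by a ratio of 1.18 (log2 fold change 0.24, SE 0.0171, adjusted p = 1.67e-14, limma), and 0.50 on the log2 scale with the trend removed. Nid1, which links laminin to collagen IV, was at 20732, 20607 and 21388 in siSirt6 libraries and 23493, 23523 and 23973 in Control libraries. The fall of 0.18 on the log2 scale (adjusted p = 8.13e-11, limma) shrank to -0.03 and was not called with the trend removed. The set as a whole took 0.495% ± 0.00680 of the listed reads in siSirt6 cells and 0.517% ± 0.00136 in Control cells. Its summed normalised read counts ran the other way, at 75739 ± 662 in siSirt6 cells and 72850 ± 117 in Control cells.

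Matricellular genes moved both ways, with Tnc, Tnxb and Tgfbi higher and Sparc and Spon2 lower. Tnc and Tgfbi rose 1.43-fold and 1.45-fold, and Spon2 fell to 0.267 of Control. Of 10 genes, 6 rose and 4 fell (median log2 fold change 0.22, all tested genes 0.08), and 6 were higher, 3 lower and 1 not called with the trend removed. The shares of all tested genes were 50.5% higher and 49.3% lower, or 38.9% and 37.7% with the trend removed.

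Tnc encodes tenascin C, a matrix protein that weakens cell adhesion to fibronectin and is made in injured vessels. It was at 4185, 4204 and 4124 in siSirt6 libraries and 2864, 2933 and 2944 in Control libraries. The siSirt6 libraries were all higher and close to each other (log2 fold change 0.52, SE 0.0287, adjusted p = 2.75e-17, limma). Tnxb, a tenascin that associates with collagen fibrils and elastic fibres, averaged 991 ± 31.8 in siSirt6 cells and 795 ± 35.1 in Control cells, a log2 fold change of 0.32. Thbs3, the thrombospondin with values here, averaged 459 ± 23.4 in siSirt6 cells and 354 ± 15.6 in Control cells, a log2 fold change of 0.38. Exons of the neighbouring gene Mtx1, on the opposite strand, cover 6.59% of those of Thbs3.

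Tgfbi and Postn encode fasciclin-domain proteins that bind integrins and collagens. Tgfbi was at 1183, 1105 and 1057 in siSirt6 libraries and 815, 766 and 730.1 in Control libraries. All siSirt6 values were higher (log2 fold change 0.53, SE 0.0533, adjusted p = 1.03e-10, limma). Postn was at 9328, 9348 and 10031 in siSirt6 libraries and 10888, 11036 and 10929.7 in Control libraries. All siSirt6 values were lower, by a log2 fold change of -0.20 (adjusted p = 1.44e-08, limma) that turned to 0.13 with the trend removed, so that these related genes were both higher in that fit.

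Sparc, a collagen-binding glycoprotein that takes part in collagen fibril assembly, was the second most abundant member per kb in siSirt6 cells and the most abundant in Control cells. It was at 124478, 121748 and 124364 in siSirt6 libraries and 146285, 144048 and 144730.0 in Control libraries. Every siSirt6 value was lower (log2 fold change -0.23, SE 0.011, adjusted p = 4e-19, limma), and with the trend removed it was -0.27. Its relative Sparcl1 was at 333, 325 and 346 in siSirt6 libraries and 228, 212 and 269 in Control libraries, which did not overlap. Sparcl1 rose by a log2 fold change of 0.50 (SE 0.0932, adjusted p = 1.19e-05, limma), and the per-kb ratio of Sparc to Sparcl1 was 286 ± 6.42 in siSirt6 cells and 480 ± 56.8 in Control cells. Sparc alone took 0.808% ± 0.0120 of the listed reads in siSirt6 cells and 1.03% ± 0.00721 in Control cells. The other matricellular genes together took 0.392% ± 0.00375 in siSirt6 cells and 0.400% ± 0.00169 in Control cells. Their summed normalised read counts ran the other way, at 60005.5 ± 543 in siSirt6 cells and 56322.8 ± 186 in Control cells.

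Spon2, a secreted spondin known as a ligand of immune integrins, fell furthest in the set. It was at 65.3, 55.7 and 47.9 in siSirt6 libraries and 215, 225 and 193 in Control libraries. The highest siSirt6 value was under the lowest Control value by far (log2 fold change -1.90, SE 0.145, adjusted p = 1.31e-13, limma). Spon1 averaged 485 ± 33.2 in siSirt6 cells and 553 ± 28.8 in Control cells, and its groups overlapped. Its log2 fold change of -0.19 passed the test (adjusted p = 0.0102, limma) but was 0.05 with the trend removed, and its adjusted p was 0.052 without Control replicate 1. Igfbp7, a secreted protein that binds insulin-like growth factors weakly and is found in vessel basement membranes, was at 43546, 42393 and 42534 in siSirt6 libraries and 39433, 39590.0 and 39592 in Control libraries. Its log2 fold change of 0.12 (adjusted p = 1.61e-08, limma) was -0.28 with the trend removed and -0.00 when scaled to the listed totals. With 1209 nt of exon it is the shortest member, and Polr2b, on the opposite strand, covers 7.03% of its exonic bases.

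Both hyaluronan synthases with values rose, with ratios of 1.98 for Has2 and 1.95 for Has1, while Vcan rose 1.78-fold and Fn1 1.19-fold. Matn2, Matn4 and Svep1 fell. Of the 11 genes of the set, 6 rose and 5 fell (median log2 fold change 0.25, all tested genes 0.08), with the same counts once the trend was removed. For all tested genes the shares were 50.5% higher and 49.3% lower, or 38.9% and 37.7% with the trend removed.

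Has2, on chromosome 15 at 56665627 to 56694539 (minus strand), makes most of the hyaluronan of mesenchymal cells. It was at 61.3, 71.1 and 67.6 in siSirt6 libraries and 50.7, 21.4 and 29.0 in Control libraries. Control replicate 1 was the highest of its group by a wide margin and still lay under every siSirt6 library. The log2 fold change, a mean difference of logs that here lies a little above the ratio of means, was 1.05 (SE 0.241, adjusted p = 0.000238, limma), and between 0.78 and 1.38 when a library was left out. The antisense gene Has2os covers 4.30% of the exonic bases of Has2 and was not analysed here. Has1 was at 133, 142 and 117 in siSirt6 libraries and 59.5, 82.8 and 58.9 in Control libraries, with no overlap (log2 fold change 0.96, SE 0.159, adjusted p = 2.08e-06, limma).

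Vcan, on chromosome 13 at 89655312 to 89742509 (minus strand), encodes versican, the large hyaluronan-binding proteoglycan of the vessel wall. It was at 4576, 4640.0 and 4652 in siSirt6 libraries and 2621, 2614 and 2559 in Control libraries. The groups were tight and far apart (log2 fold change 0.83, SE 0.0286, adjusted p = 3.76e-23, limma), and the value was 1.16 with the trend removed, the largest of any member in that fit. Fn1, fibronectin, onto which other matrix proteins assemble, was at 112959, 115156 and 117902 in siSirt6 libraries and 96943, 95899 and 98314 in Control libraries. All siSirt6 values were higher (log2 fold change 0.25, SE 0.0133, adjusted p = 1.57e-15, limma). Per kb, the ratio of Vcan to Fn1 was 0.0324 ± 0.000451 in siSirt6 cells and 0.0216 ± 0.000528 in Control cells, with no overlap. That of Tnc to Fn1 was 0.0544 ± 0.00161 in siSirt6 cells and 0.0451 ± 0.000787 in Control cells, also with no overlap.

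Of the adaptors, Aebp1, whose secreted product binds collagen, was at 29190.0, 29150.0 and 29099.6 in siSirt6 libraries and 19124, 18999 and 18946 in Control libraries. The groups were far apart, with a ratio of 1.53 (log2 fold change 0.62, SE 0.0162, adjusted p = 2.5e-26, limma). Dpt, which encodes dermatopontin, a small protein that binds decorin and fibronectin, averaged 1081 ± 35.0 in siSirt6 cells and 660.2 ± 20.3 in Control cells, a log2 fold change of 0.71. Ecm1 was at 31527, 31922 and 31728 in siSirt6 libraries and 35177, 34151 and 35054 in Control libraries. It was lower in every siSirt6 library (log2 fold change -0.13, SE 0.0156, adjusted p = 3.17e-09, limma).

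Both matrilins with values, filament-forming adaptor proteins of the matrix, fell. Matn2 averaged 738 ± 19.5 in siSirt6 cells and 1302 ± 24.3 in Control cells (log2 fold change -0.82, SE 0.0479, adjusted p = 1.22e-16, limma). Matn4 was at 23.7, 20.6 and 16.7 in siSirt6 libraries and 32.2, 53.5 and 52.2 in Control libraries, with Control replicate 1 nearest to the siSirt6 values. The log2 fold change was -1.12 (SE 0.265, adjusted p = 0.000286, limma). Svep1, a large cell adhesion protein that binds integrins, averaged 3149.7 ± 79.9 in siSirt6 cells and 4658 ± 30.7 in Control cells. It fell by 0.56 on the log2 scale, and by 0.29 with the trend removed. Exons of Gm26889, on the opposite strand, cover 13.9% of the exonic bases of Svep1. Ecm2 averaged 40.2 ± 5.76 in siSirt6 cells and 64.1 ± 5.71 in Control cells, a log2 fold change of -0.67 that was -0.58 and not called by DESeq2 on 5 libraries (adjusted p = 0.0617). The set took 1.22% ± 0.0227 of the listed reads in siSirt6 cells and 1.14% ± 0.0123 in Control cells.

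Mfap1a also matched the name pattern, although its product is a splicing factor and no part of the microfibril. It averaged 264 ± 16.9 in siSirt6 cells and 331 ± 25.2 in Control cells (log2 fold change -0.32, adjusted p = 0.00129, limma). Its near-identical copy Mfap1b was not analysed here, and how the authors' counting divided reads between the copies is uncertain.

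Per kb of exon, the members spanned a wide range. Igfbp7 stood at 35421 ± 520 and Sparc at 32611 ± 408 normalised read counts per kb in siSirt6 cells, while in Control cells Igfbp7 stood at 32703 ± 75.3 and Sparc at 38284 ± 303, so that the top pair changed places. With the length and GC trend removed, the log2 fold changes were -0.28 for Igfbp7 and -0.27 for Sparc, so their ratio hardly differed between the groups in that fit. Next in siSirt6 cells were Fbln2 at 18362, Ecm1 at 12585, Fn1 at 9871, Efemp1 at 7805 and Aebp1 at 7182. Next in Control cells were Ecm1 at 13802, Fbln2 at 13441, Efemp1 at 9636, Fn1 at 8306 and Aebp1 at 4688. Eln ranked 15 of 47 in siSirt6 cells, at 1039 ± 51.5 per kb, and 19 in Control cells, at 584 ± 16.8 per kb. Vcan ranked 25 in siSirt6 cells and 30 in Control cells. Spon2 went the other way, at rank 42 in siSirt6 cells and 36 in Control cells, as did Matn2, at 32 in siSirt6 cells and 27 in Control cells. Lama1 was the lowest, at 0.488 ± 0.203 in siSirt6 cells and 2.41 ± 0.824 in Control cells. In all, the members took 4.26% ± 0.0498 of the listed reads in siSirt6 cells and 4.30% ± 0.0217 in Control cells. Summed as normalised read counts they ran the other way, at 651147 ± 4353 in siSirt6 cells and 606251 ± 3008 in Control cells.

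**Figure D4:**
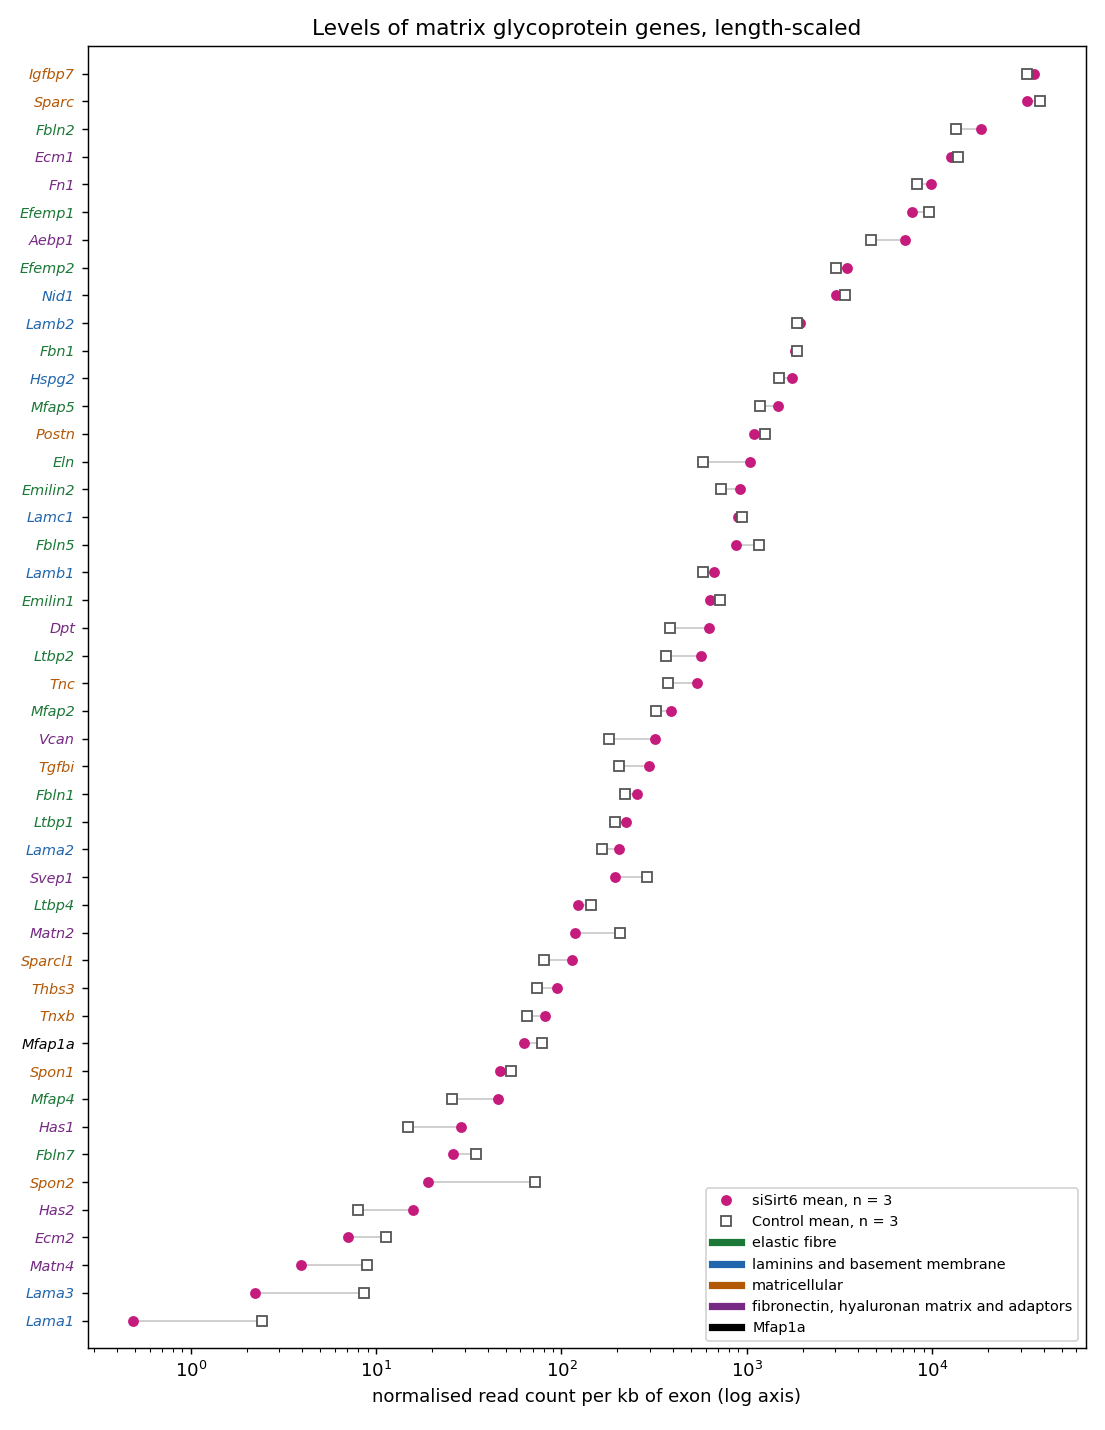
Levels of the members reported, in normalised read counts per kb of exon (log axis), by set. Filled dots are siSirt6 means and open squares Control means (n = 3 libraries each). Igfbp7 and Sparc lead, Igfbp7 at 35421 and Sparc at 32611 per kb in siSirt6 cells, and the widest gaps between the symbols are those of Lama1, Lama3 and Spon2.

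Genes that act on these proteins were followed in fixed lists, in tables of which 50.5% of all tested genes were called higher and 49.3% lower. All 5 lysyl oxidases, which cross-link elastin and collagen, were tested, with 3 higher and 2 lower. Loxl1, the oxidase most closely tied to elastin in mice, averaged 17104 ± 286 in siSirt6 cells and 9216 ± 110 in Control cells, a 1.86-fold rise. Loxl3 averaged 8232 ± 119 in siSirt6 cells and 5054 ± 70.1 in Control cells. Loxl4 was 1.28-fold higher, whereas Loxl2 was at 0.832 and Lox at 0.929 of Control, and Lox stood at -0.01 on the log2 scale and was not called with the trend removed.

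Of 21 receptors for these matrix proteins, 13 were tested, with 10 higher and 3 lower. Over all tested genes the shares were 50.5% higher and 49.3% lower, or 38.9% and 37.7% with the trend removed. Cd44, the main hyaluronan receptor, averaged 4549 ± 214 in siSirt6 cells and 2046 ± 33.1 in Control cells, a ratio of 2.22. Itga5, the fibronectin receptor chain, averaged 19810.3 ± 307 in siSirt6 cells and 12007 ± 244 in Control cells, and the syndecan Sdc4 averaged 7529 ± 311 in siSirt6 cells and 4459 ± 76.6 in Control cells. Of 12 genes of hyaluronan turnover, 7 were tested, with 2 higher and 5 lower, and 1 higher, 4 lower and 2 not called with the trend removed. Cemip, which takes part in hyaluronan breakdown, averaged 3557 ± 143 in siSirt6 cells and 5562 ± 51.7 in Control cells, and the hyaluronan receptors Lyve1 and Hmmr were at 0.657 and 0.745 of Control.

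Of 24 proteases that cut elastin or matrix glycoproteins, 16 were tested, with 7 higher and 9 lower, and 6 higher, 6 lower and 4 not called with the trend removed. Mmp9, among those higher in both fits, passed the filter through siSirt6 libraries only and so had to differ, and its part in the counts supports nothing. Adamts5 and Adamts1, which cut versican and other proteoglycans, were at 0.683 and 0.692 of Control, and the cathepsin gene Ctsl was 1.37-fold higher. Of 18 TGF-beta ligands, receptors and mediators, 15 were tested, with 4 higher and 11 lower, and 4 higher, 9 lower and 2 not called with the trend removed. Lrrc32, which presents latent TGF-beta on the cell surface, was 1.29-fold higher, and the receptors Tgfbr3 and Tgfbr2 were at 0.698 and 0.797 of Control. With the trend left in, every tested gene of these lists was called, as was every member, against 99.8% of all tested genes. Being called therefore says nothing of the lists by itself. With the trend removed, 28 members were higher, 15 lower and 4 not called, against 76.6% of all tested genes called. Whether the members or a list differ from all tested genes was not tested. All tested genes were called higher in 50.5% of cases and lower in 49.3%, or 38.9% and 37.7% with the trend removed.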

How the data were processed

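Libraries came from a kit for strand-specific mRNA sequencing of Trizol-extracted RNA, per the labels' protocols. Named without role or version in the submitters' processing notes are HTSeq, Cufflinks, HISAT2 and Trimmomatic, and the build mm10. Each deposited table gives a signal per gene for 7384 genes, which is whole reads divided by 1 factor per library: 100% of values came out whole within 0.001 reads. The tables hold mostly genes that differ, and the strength of a call is therefore read from its size.

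The members and lists were chosen with earlier results of these data known. Limma 3.58.1 in R 4.3.3 (trend, robust, 2-sided) compared 3 siSirt6 with 3 Control libraries on log2(value + 1) of all genes with at least 10 in at least 3 libraries (7179), with Benjamini-Hochberg adjustment and a threshold of 0.05. The added 1 shrinks the fold changes of low genes, and ratios, which are of group means, can differ from them. Positions, exon lengths and GC contents were read from GENCODE vM21 (GRCm38), in which 7331 of 7384 identifiers were found, and promoters from RefSeq. Exon length joins the exons of all annotated transcripts of a gene, so levels and ranks per kb between genes rest on it. The trend on log length and GC content was removed per library as an alternative. Values of every library are given for Sirt6 and, in each set, for the 4 members with the largest change and the 3 highest per kb. Each list of genes that act on the members names at least its 3 genes of smallest p. Genes named from the marker lists did not follow that rule. On simulated data, with 50 of 7179 genes changed at each size, the fit recovered 78% of 1.25-fold and 100% of 2-fold changes. The simulation used a fixed spread between libraries and left most genes unchanged, unlike these tables, so its rates may not hold here. Count tests (edgeR 4.0.16, DESeq2 1.42.0, voom) used the recovered reads of 5 libraries, without siSirt6 replicate 1, whose step was too near 1 to be checked automatically. The interval of the Lama1 read ratio covers counting error only, and the limma intervals come from the spread between libraries. A member that enters the counts is not reported here by name.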

Additional observations from a re-analysis of the deposited data

How the results depend on the processing

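Across 20 alternatives, 35 of the 47 members kept both direction and call wherever they were tested, and Lama1 and Matn4 were not tested with a filter of 50. Direction turned with the length and GC trend removed, with or without the replicate block, for Fbn1 (0.20), Igfbp7 (-0.28), Lamc1 (0.11), Mfap2 (-0.12), Postn (0.13) and Spon1 (0.054), and under scaling to listed totals for Igfbp7 (-0.0037) and Lamb2 (-0.058). That scaling moved the median log2 fold change of all tested genes to -0.03 in place of 0.08. With the trend removed, with or without the replicate block, 2 laminin and basement membrane genes were lower in place of 4. Of all tested genes, 37.7% were lower with the trend removed and no block, in place of 49.3%. Changes of at least 2-fold numbered 3 in place of 5 with a filter of 50 normalised read counts or a pseudocount of 5. They numbered 7 with the trend removed, where the share of all tested genes was 6.9% in place of 7.72%. With the filter of 50, Lama1 and Matn4, both lower by at least 2-fold, dropped out of the count. With the pseudocount of 5, Has2 was among those lost, at a log2 fold change of 0.96. The cause of the other shifts was not tested. Without each library in turn, the log2 fold change of Sirt6 ran between -2.31 and -2.06. The members higher numbered 27 throughout, those lower 18 to 20 and those at least 2-fold 4 to 5. Shares of all tested genes are not given for these fits, the count tests, the filter of 50 or the pseudocount. Counts from those settings describe the members only. Calls lost without a library were those of Fbln7, Fbn1 and Spon1. With the replicate number as a block, 27 members were higher and 20 lower, and no member's call changed. Of all 7179 tested genes, 3629 were then higher, 3540 lower and 10 not called. Nothing in the sample titles says whether equal numbers pair the samples. Same-numbered libraries did not deviate together (correlations -0.019, 0.027 and -0.00079), which does not exclude a pairing. The edgeR test on the reads of all 6 libraries was chosen after seeing the data and kept 46 of 47 calls, and the planned edgeR, DESeq2 and voom tests on 5 libraries kept 45, 42 and 45. Depth limits Lama1, Lama3, Matn4, Has2, Mfap4 and Ecm2, each under 100 normalised read counts in every library.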
